A study of Mus musculus with 12 samples.

Results

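The 10 genes described here encode ligands, receptors and regulators of transforming growth factor beta (TGF-beta) signalling: the ligands Tgfb1, Tgfb2 and Tgfb3, the activin subunit Inhba, the extracellular proteins Ltbp2 and Grem1, the receptors Tgfbr1 and Tgfbr2, and the SMAD proteins Smad3 and Smad7. They were taken as a list of gene names, drawn up with earlier results of these data in view, and all 10 were among the 17340 genes of the deposited table. The cells were KPC, a pancreatic cancer line of the mouse with C57BL/6 as the labelled genotype, cultured in DMEM plus fetal bovine serum, and their RNA was sequenced. The groups were control cells, labelled untreated in one field and PBS in another and called wild-type in the design text, and cells given 1 µM of JQ1, I-BET151 or ITF2357 for 48 h. With 3 libraries per group, there were 12 libraries in 4 groups. JQ1 and I-BET151 block the bromodomains by which BET proteins bind acetylated histones, and ITF2357 (givinostat) inhibits histone deacetylases. No solvent of the compounds and no engineered allele of the line is named in the labels. All groups are the same line, and nothing in the labels says that the libraries came from separate cultures. The p-values set differences between groups only against the variation between these libraries, and that variation may be technical.

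TGF-beta ligands are secreted in a latent complex, held in the extracellular matrix by latent TGF-beta binding proteins, and are released by integrins and proteases. The active ligand binds the type II receptor, which recruits and phosphorylates the type I receptor, and the latter phosphorylates SMAD2 and SMAD3, which enter the nucleus with SMAD4. SMAD7 is induced by the pathway and inhibits it at the type I receptor. In pancreatic epithelium the pathway restrains growth, and in carcinoma cells it can promote epithelial-mesenchymal transition.

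Library totals were 21 to 31.2 M counts. Values are counts per M library counts (CPM) on library sizes scaled with TMM factors, and levels of different genes are compared only as RPKM, which also divides by gene length. That length is 1 deposited value per gene, and the transcripts made in these cells may be shorter. Shares and orders between genes hold only for those lengths. A gene was said to have risen or fallen where edgeR's quasi-likelihood test over all 17340 genes gave a Benjamini-Hochberg adjusted p under 0.05, and fitted log2 fold changes follow with their SE. Gene positions are from GENCODE M21 on build mm10. Of the epithelial markers, Krt8, Krt18, Krt19 and Cdh1 stood at mean values of 486 to 840 CPM in control cells, whereas Epcam stood at 1.75 and Cldn4 at 0.315 CPM. The known BET responders were Hexim1, with log2 fold changes of 0.25 for JQ1, 1.83 for I-BET151 and 0.71 for ITF2357, and Myc, with -0.32, -1.56 and -0.72. All 6 of those values passed the test.

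Against control, 7 of the 10 genes passed with JQ1, 4 higher and 3 lower, where 24.8% of all genes passed (12.5% higher, 12.3% lower). With I-BET151, 9 passed, 4 higher and 5 lower, against 63.1% of all genes (30.5% higher, 32.6% lower). ITF2357 gave 9, 3 higher and 6 lower, against 54% of all genes (27.6% higher, 26.4% lower). Libraries of compound and control did not overlap in 9 of the 10 genes with each compound, where this held for 38.9% of all genes for JQ1, 67.5% for I-BET151 and 58.1% for ITF2357. A fold of at least 2 was reached by 0 of the genes with JQ1 (0.606% of all genes), by Inhba, Ltbp2 and Grem1 with I-BET151 (15.7%) and by Ltbp2 and Grem1 with ITF2357 (8.66%). The median size of the log2 fold change, sign disregarded, was 0.25 over the 10 genes and 0.15 over all genes with JQ1, 0.64 and 0.39 with I-BET151, and 0.65 and 0.29 with ITF2357. The shares over all genes were not matched for expression level. These 10 genes had control means of 12.7 to 296 CPM, whereas the deposited table goes down to 51 counts in total. Genes with few counts pass less easily. The 3 comparisons share the control libraries. With I-BET151, 48.4% of all called genes were higher, and 33% when library totals were used without a scaling factor, which moved the median over all genes by -0.16 on the log2 scale.

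**Figure D1:**
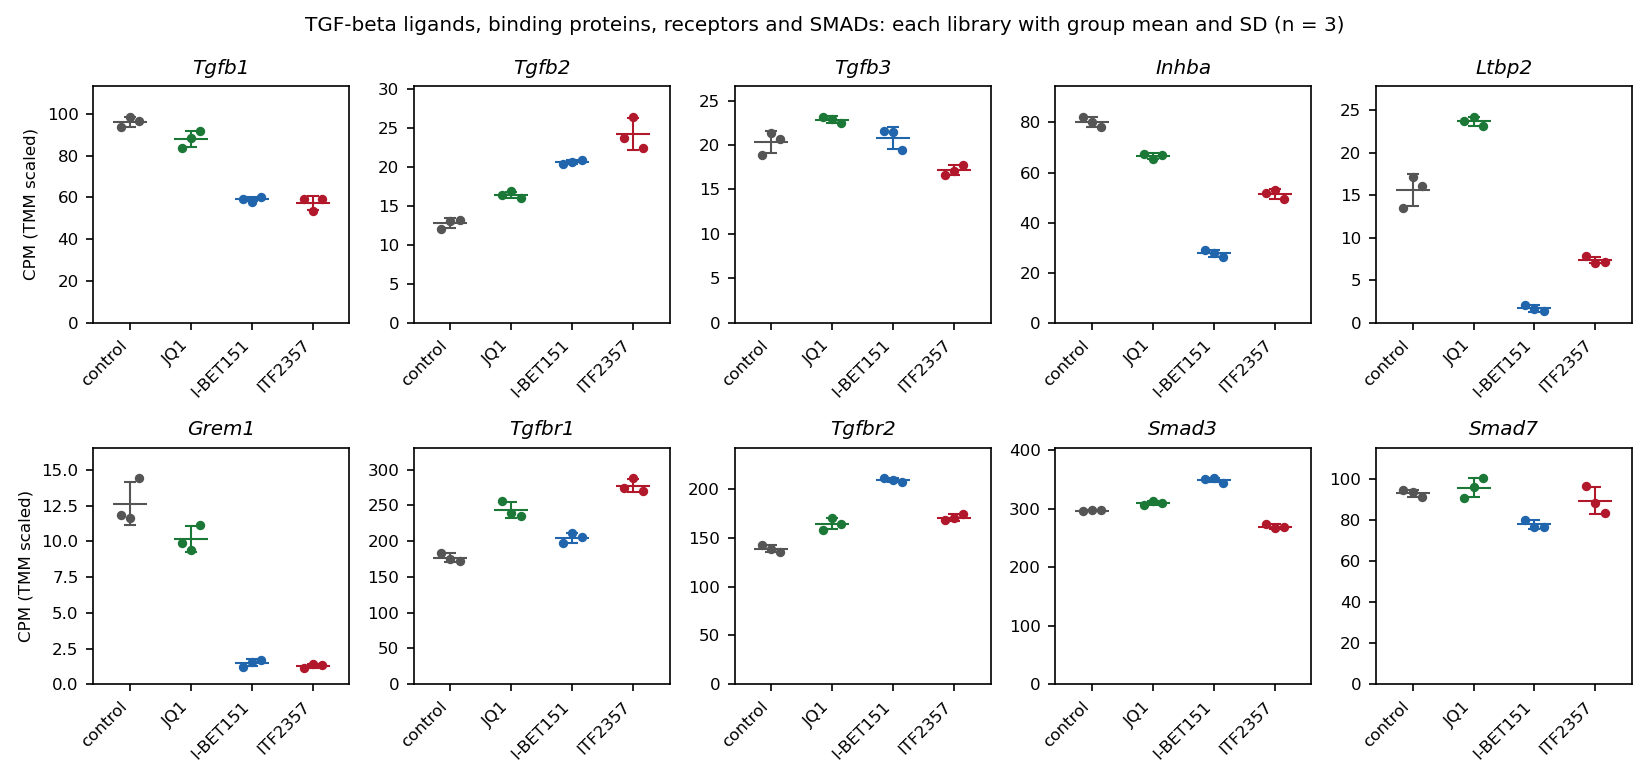
CPM of each of the 10 genes in the 12 libraries, on a separate linear axis per gene. Each library has 1 point, and a bar marks each group mean of 3 libraries with its SD. Grem1 stood at 11.7 to 14.4 CPM in control cells and at 1.11 to 1.40 CPM with ITF2357, and Ltbp2 was highest with JQ1 and lowest with I-BET151.

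The plot of values by library shows Tgfb1 falling and Tgfb2 rising in the groups given I-BET151 or ITF2357. Tgfb1 (chr7:25687002-25705077, plus strand) encodes the ligand that gives the family its name. Its control libraries held 93.7, 98.5 and 96.5 CPM and its JQ1 libraries 83.8, 88.6 and 91.7 CPM. The I-BET151 libraries held 59.2, 58.0 and 60.1 CPM and the ITF2357 libraries 59.2, 53.4 and 59.3 CPM. No compound's libraries overlapped with control, and the JQ1 libraries lay between control and the other 2 groups. Tgfb1 fell by 0.70 on the log2 scale with I-BET151 (SE 0.04, edgeR adjusted p = 4.60e-16) and by 0.74 with ITF2357 (SE 0.04, edgeR adjusted p = 1.06e-16). In these bulk samples, fewer cells making a transcript and less of it per cell cannot be told apart. With JQ1 it fell by 0.13 (SE 0.04, edgeR adjusted p = 0.0176). That call was lost without control library 2 (adjusted p = 0.0934), without control library 3 (0.0542) or without JQ1 library 1 (0.155), and adjusted p over all alternatives ran from 0.00244 to 0.155.

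Tgfb2 (chr1:186622792-186705989, minus strand) encodes a ligand that binds the type II receptor weakly without the co-receptor betaglycan. Its control libraries held 12.1, 13.1 and 13.2 CPM and its JQ1 libraries 16.3, 16.8 and 16.04 CPM. With I-BET151 the values were 20.4, 20.6 and 20.8 CPM, and with ITF2357 23.7, 26.4 and 22.4 CPM. The 4 groups were all apart from each other, in the order control, JQ1, I-BET151, ITF2357. Tgfb2 rose by 0.36 on the log2 scale with JQ1 (SE 0.08, edgeR adjusted p = 0.000599), by 0.69 with I-BET151 (SE 0.08, edgeR adjusted p = 1.48e-09) and by 0.91 with ITF2357 (SE 0.07, edgeR adjusted p = 1.22e-12). On the other strand from Tgfb2 lie the antisense gene Gm29491 and the small RNA Gm26169, and the labels do not say that reads were counted by strand, so counts of such overlapping genes are uncertain.

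Tgfb3 (chr12:86056745-86079041, minus strand), the remaining TGF-beta ligand, varied least among the ligands, between 16.6 and 23.2 CPM over the 12 libraries. Control libraries spanned 18.9 to 21.3 CPM, JQ1 libraries 22.5 to 23.2, I-BET151 libraries 19.4 to 21.6 and ITF2357 libraries 16.6 to 17.8. Only the I-BET151 range overlapped with that of control. The fall with ITF2357 was -0.24 on the log2 scale (SE 0.07, edgeR adjusted p = 0.00387). With JQ1 the difference was 0.17 (95% interval 0.03 to 0.31, edgeR adjusted p = 0.0640), which did not pass, and in a fit of those 2 groups alone the adjusted p was 0.0425, within a range of 0.0425 to 0.286 over the alternatives. With I-BET151 it was 0.04 (95% interval -0.11 to 0.18, edgeR adjusted p = 0.682). Tgfb3 overlaps the protein-coding gene Ttll5 on the opposite strand, so its counts are uncertain in the same way as those of Tgfb2.

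Per length, Tgfb1 was the most abundant of the 3 ligands in every group and Tgfb2 the least. The deposited lengths were 5042, 5791 and 3383 bases for Tgfb1, Tgfb2 and Tgfb3, and the shares depend on them. The summed RPKM of the 3 ligands was 26.3 to 28.1 in control libraries, 26.3 to 27.6 with JQ1, 21.3 to 21.6 with I-BET151 and 20.2 to 20.9 with ITF2357. Tgfb1 made up 69.9% ± 0.736 (SD, n = 3 in each group) of that sum in control cells, 64.5% ± 1.33 under JQ1, 54.7% ± 1.22 under I-BET151 and 55.1% ± 2.34 under ITF2357. Its share was lower in every library of each compound than in every control library.

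The share of Tgfb2 was 7.93%, 8.04% and 8.29% in the control libraries and 10.7%, 10.7% and 10.0% with JQ1. It was 16.3%, 16.6% and 16.9% with I-BET151, and 19.7%, 22.6% and 18.5% with ITF2357. Tgfb3 made up 22.0% ± 0.611, 25.0% ± 0.992, 28.7% ± 1.48 and 24.6% ± 0.824 (SD, n = 3) in control, JQ1, I-BET151 and ITF2357 cells. The 3 shares are parts of the same sum, so they are not independent. Although its share was higher, Tgfb3 itself did not pass with I-BET151 (log2 fold change 0.04) and fell with ITF2357 (-0.24). Each of the 9 differences in share from control gave p = 0.1 in a two-sided exact permutation test, the smallest that 3 against 3 libraries allow, and 0.115 after Benjamini-Hochberg adjustment over 15 tests of shares and ratios. A design of this size cannot reach the threshold for such a single value.

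The promoters of Tgfb1, Tgfb2 and Inhba are shown because these ligand genes moved in opposite directions. Each is the RefSeq window from 250 bases before to 50 bases after the gene's start on build GRCm38.p6, written on the strand of the gene, and the capitals mark matches to the SMAD-binding motif CAGAC (either strand) or the E-box CACGTG. The windows are chr7:25686752-25687051 (plus strand), chr1:186705940-186706239 (minus strand) and chr13:16011601-16011900 (plus strand).
Tgfb1: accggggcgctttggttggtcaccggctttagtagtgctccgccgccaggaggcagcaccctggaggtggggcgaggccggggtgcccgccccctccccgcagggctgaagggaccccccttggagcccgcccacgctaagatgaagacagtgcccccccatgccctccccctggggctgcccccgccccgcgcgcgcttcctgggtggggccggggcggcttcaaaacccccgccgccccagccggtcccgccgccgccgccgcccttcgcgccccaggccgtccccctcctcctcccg
Tgfb2: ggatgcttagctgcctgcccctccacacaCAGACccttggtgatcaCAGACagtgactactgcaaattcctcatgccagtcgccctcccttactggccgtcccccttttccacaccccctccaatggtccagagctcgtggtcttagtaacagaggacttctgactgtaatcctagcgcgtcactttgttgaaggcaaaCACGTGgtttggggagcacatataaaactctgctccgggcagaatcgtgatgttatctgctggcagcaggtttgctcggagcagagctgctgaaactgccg
Inhba: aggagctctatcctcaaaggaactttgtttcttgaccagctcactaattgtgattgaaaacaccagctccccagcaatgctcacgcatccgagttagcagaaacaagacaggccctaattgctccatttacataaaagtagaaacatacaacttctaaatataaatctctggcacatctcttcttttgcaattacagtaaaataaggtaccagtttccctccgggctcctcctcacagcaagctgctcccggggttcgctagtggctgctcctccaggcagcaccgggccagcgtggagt
CAGAC in either direction occurred in 49.6% of 32851 mouse promoters of this length, CACGTG in 7.2% and the AP-1 motif TGANTCA, searched on both strands, in 7.8%. The window of Tgfb2 held CAGAC at positions -221 and -204 and CACGTG at -51 relative to the start. Those of Tgfb1 and Inhba held none of these letters. GC content was 77% for Tgfb1, 54.3% for Tgfb2 and 47.7% for Inhba, where the median of all promoters was 52.7%. These matches describe the letters only.

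Inhba (chr13:16011851-16031621, plus strand) encodes the beta A subunit, whose dimer is activin A, a ligand that acts through SMAD2 and SMAD3 by its own receptors. Control libraries held 82.2, 80.2 and 78.3 CPM and JQ1 libraries 67.4, 65.4 and 67.1 CPM. The I-BET151 libraries held 29.2, 27.7 and 26.2 CPM and the ITF2357 libraries 51.8, 53.2 and 49.2 CPM. The 4 groups did not overlap, with I-BET151 lowest and ITF2357 between it and JQ1. Inhba fell 2.90-fold with I-BET151 (log2 fold change -1.54 ± 0.05 SE, edgeR adjusted p = 2.33e-24). The log2 fold change was -0.64 ± 0.04 SE with ITF2357 (edgeR adjusted p = 7.65e-15) and -0.27 ± 0.04 SE with JQ1 (edgeR adjusted p = 7.75e-06). Opposite Inhba the annotation places the antisense gene Gm48444 and the pseudogene B230303A05Rik, with the same uncertainty of strand.

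The gene most like Inhba over the 4 group means was Myc, at a root mean square distance of 0.0278 on the log2 scale from Inhba after each gene was centred on its own mean, among 11260 genes compared. Centred log2 CPM of Myc was 0.65, 0.33, -0.91 and -0.07 in control, JQ1, I-BET151 and ITF2357 cells. Tgfb1 lay closest to Gm42576 (0.012) and Mapk12 (0.0146), and Tgfb2 to Gm7232 (0.0233) and Tm4sf4 (0.0287). Such distances describe 4 means per gene and carry no test.

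Ltbp2 and Grem1, both secreted, changed most among the 10 genes with I-BET151 and ITF2357. Ltbp2 (chr12:84783212-84876532, minus strand) belongs to the family of latent TGF-beta binding proteins but does not itself bind the latent ligand, and it sits in microfibrils of the matrix. Its control libraries held 13.5, 17.2 and 16.2 CPM and its JQ1 libraries 23.8, 24.2 and 23.1 CPM. With I-BET151 the values were 2.09, 1.60 and 1.33 CPM, and with ITF2357 7.80, 7.09 and 7.20 CPM. JQ1 libraries were above every control library and those of the other 2 compounds below every one. Ltbp2 rose with JQ1 (log2 fold change 0.60 ± 0.09 SE, edgeR adjusted p = 1.59e-06). It fell 9.34-fold with I-BET151 (-3.22 ± 0.16 SE, edgeR adjusted p = 8.22e-21) and 2.11-fold with ITF2357 (-1.08 ± 0.10 SE, edgeR adjusted p = 1.67e-11). The antisense gene D030025P21Rik overlaps its start on the opposite strand.

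Grem1 (chr2:113746164-113758646, minus strand) encodes gremlin 1, a secreted antagonist that binds bone morphogenetic proteins (BMPs). Control libraries held 11.9, 11.7 and 14.4 CPM and JQ1 libraries 9.88, 9.39 and 11.2 CPM. The I-BET151 libraries held 1.21, 1.56 and 1.70 CPM and the ITF2357 libraries 1.11, 1.40 and 1.35 CPM. The last 2 groups overlapped with each other and lay far below control. Grem1 fell 8.42-fold with I-BET151 (log2 fold change -3.07 ± 0.17 SE, edgeR adjusted p = 9.86e-19) and 9.87-fold with ITF2357 (-3.30 ± 0.17 SE, edgeR adjusted p = 1.46e-19). In order of log2 fold change from the lowest, it ranked 18 of 17340 genes with ITF2357 and 233 with I-BET151. With JQ1 it fell by 0.32 on the log2 scale (SE 0.11, edgeR adjusted p = 0.0315), a call that was lost with DESeq2 (adjusted p = 0.0663) and without control library 3 (0.257), JQ1 library 1 (0.114) or JQ1 library 2 (0.134). Over all alternatives that adjusted p ran from 0.00581 to 0.257, and the log2 value without control library 3 was -0.21.

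Ltbp2 and Grem1 are also made by fibroblasts, and markers of fibroblasts and of other cell types were read beside them. Of 9 listed fibroblast markers, Col1a1, Pdgfra and Pdgfrb were measured, none was at 0 in any library, and the other 6 are not analysed here. Their summed level was 21.8 to 22.8 CPM in control, 20.8 to 26.5 with JQ1, 6.75 to 7.72 with I-BET151 and 20.2 to 23.1 with ITF2357. With I-BET151 all 3 fell, each beside the falls of Ltbp2 and Grem1. With ITF2357 Pdgfrb fell from 1.64 to 0.495 CPM and Col1a1 from 14.6 to 11.3 CPM, while Pdgfra rose from 6.13 to 9.65 CPM, so the sum there adds markers that moved both ways. Of 5 endothelial markers, Pecam1 and Kdr were measured, and their summed level was 3.86 to 4.37 CPM in control, 3.28 to 3.79 with JQ1, 0.844 to 0.971 with I-BET151 and 0.951 to 1.45 with ITF2357. Kdr, the VEGF receptor, fell with both of the latter compounds, from 3.67 to 0.506 and 0.735 CPM, as Grem1 did. Pecam1 stood at 0.499, 0.390 and 0.434 CPM in control, I-BET151 and ITF2357 cells and did not pass with either compound. The acinar marker Cela1, the only one of 6 measured, fell from 4.14 to 0.465 CPM with I-BET151 and rose to 6.56 CPM with ITF2357. Cd68, the only one of 7 leukocyte markers measured, fell from 7.00 to 4.33 CPM with ITF2357. The 6 epithelial markers summed to 2903 to 2992 CPM in control and 3101 to 3178 CPM with JQ1. Their sum was 4274 to 4336 CPM with I-BET151 and 4560 to 4759 CPM with ITF2357. Of these 6, 2 rose and 1 fell with JQ1, 3 rose with I-BET151 and 5 with ITF2357, and 0 fell with the latter compounds. Over all genes, 12.5%, 30.5% and 27.6% rose with JQ1, I-BET151 and ITF2357, and 12.3%, 32.6% and 26.4% fell. No measured marker was at 0 in any library. The deposited table held only genes with at least 51 counts in total, so this does not show which cell types were present. The part of these markers in the falls of Ltbp2 and Grem1 was not tested.

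The promoters of Ltbp2 and Grem1 are shown as those of the genes with the largest falls. They are windows of the same kind at chr12:84876442-84876741 and chr2:113758599-113758898, both on the minus strand, with CAGAC or its reverse GTCTG in capitals.
Ltbp2: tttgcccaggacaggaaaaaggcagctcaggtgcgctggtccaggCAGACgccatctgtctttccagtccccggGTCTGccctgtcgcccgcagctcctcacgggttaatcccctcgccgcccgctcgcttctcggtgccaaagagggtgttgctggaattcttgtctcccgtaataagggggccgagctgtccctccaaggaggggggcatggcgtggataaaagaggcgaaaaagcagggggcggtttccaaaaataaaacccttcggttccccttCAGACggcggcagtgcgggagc
Grem1: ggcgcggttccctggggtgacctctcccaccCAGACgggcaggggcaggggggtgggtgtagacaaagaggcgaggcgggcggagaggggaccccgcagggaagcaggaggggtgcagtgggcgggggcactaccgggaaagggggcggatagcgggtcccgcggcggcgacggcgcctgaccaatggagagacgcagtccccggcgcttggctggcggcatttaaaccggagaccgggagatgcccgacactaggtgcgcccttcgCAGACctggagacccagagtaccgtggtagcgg
Ltbp2 held matches at -205, -176 and 28, and Grem1 at -219 and 17, relative to the start. Neither held CACGTG or TGANTCA. Windows of 8 of the 10 genes were searched here, and no window of those 8 held TGANTCA.

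**Figure D2:**
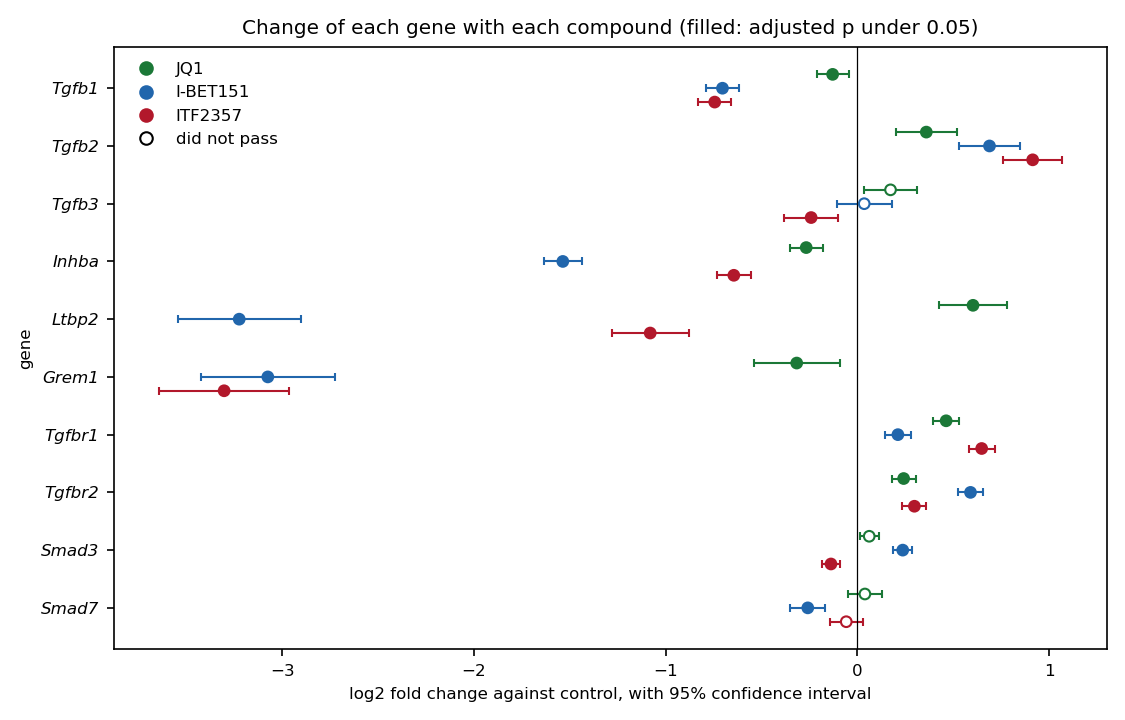
Log2 fold change of each of the 10 genes against control with its 95% confidence interval, for JQ1, I-BET151 and ITF2357; filled symbols mark an edgeR adjusted p under 0.05. Ltbp2 and Grem1 stand apart at -3.22 and -3.07 with I-BET151, and Ltbp2 lies to the right of 0, at 0.60, with JQ1.

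Both receptor genes rose with every compound, as the plot of fold changes shows. Tgfbr1 (chr4:47353222-47414931, plus strand) encodes the type I receptor kinase ALK5. Its control libraries held 184, 175 and 172 CPM and its JQ1 libraries 256, 240 and 235 CPM. With I-BET151 the values were 197, 211 and 206 CPM, and with ITF2357 275, 288 and 270 CPM. All compound libraries were above all control libraries, with ITF2357 highest. Tgfbr1 rose by 0.46 on the log2 scale with JQ1 (SE 0.03, edgeR adjusted p = 7.17e-13) and by 0.65 with ITF2357 (SE 0.03, edgeR adjusted p = 5.95e-18). With I-BET151 it rose by 0.21 (SE 0.03, edgeR adjusted p = 1.79e-06). The latter call was lost on library totals without a scaling factor (0.05, adjusted p = 0.198), within a range of 3.17e-09 to 0.198 over the alternatives.

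Tgfbr2 (chr9:116084293-116175360, minus strand) encodes the type II receptor, which binds the ligand first. Its control libraries held 143, 139 and 135 CPM and its JQ1 libraries 158, 170 and 164 CPM. With I-BET151 the values were 211, 209 and 207 CPM, and with ITF2357 168, 170 and 174 CPM. I-BET151 libraries were highest, and those of JQ1 and ITF2357 overlapped with each other above control. Tgfbr2 rose by 0.59 on the log2 scale with I-BET151 (SE 0.03, edgeR adjusted p = 4.97e-18), by 0.24 with JQ1 (SE 0.03, edgeR adjusted p = 2.03e-07) and by 0.30 with ITF2357 (SE 0.03, edgeR adjusted p = 3.73e-10).

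Tgfbr1 stood above Tgfbr2 per length in each group, and the balance of the pair differed. The log2 ratio of Tgfbr2 to Tgfbr1 in RPKM was -0.67 ± 0.02 in control, -0.89 ± 0.11 under JQ1, -0.30 ± 0.06 under I-BET151 and -1.03 ± 0.06 under ITF2357 (SD, n = 3 in each). No compound overlapped with control, with I-BET151 above it and the other 2 below, and each difference gave the smallest exact permutation p, 0.1 (0.115 adjusted).

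**Figure D3:**
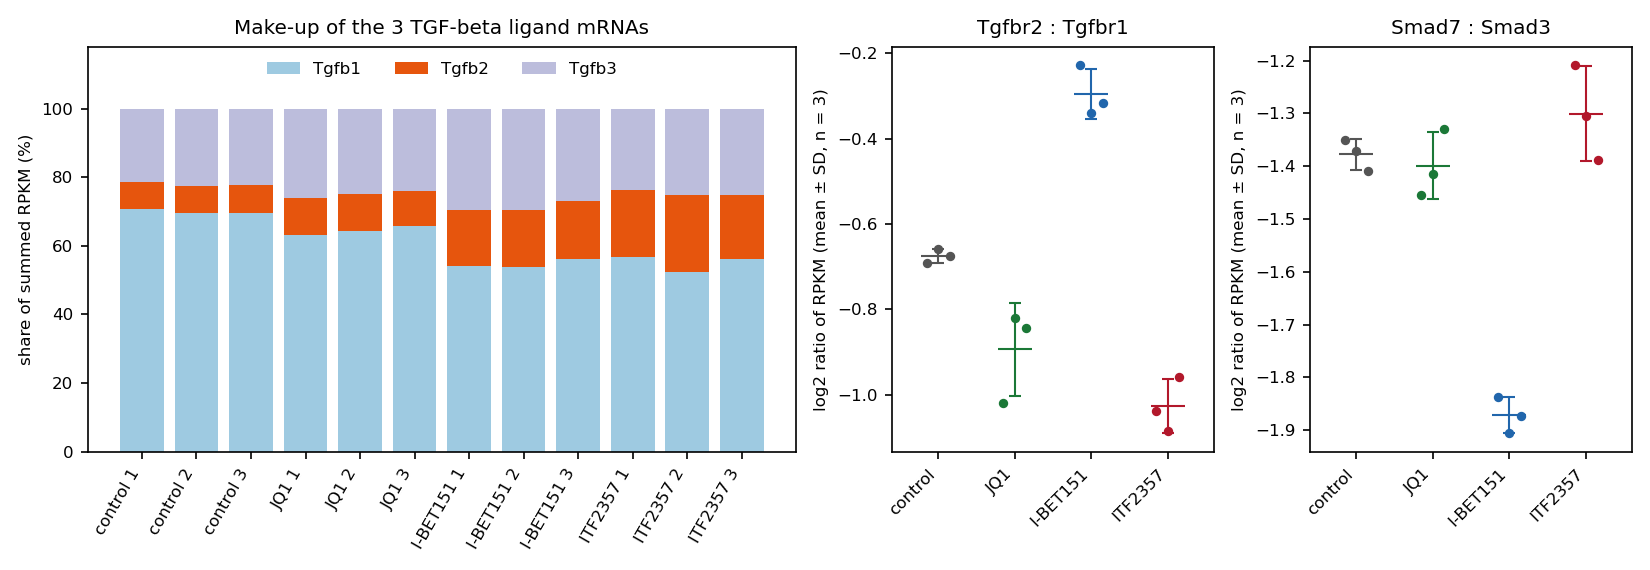
Left, share of Tgfb1, Tgfb2 and Tgfb3 in their summed RPKM in each library. Right, log2 ratio of Tgfbr2 to Tgfbr1 and of Smad7 to Smad3 in RPKM. There, each library has 1 point, and a bar marks the group mean with its SD. The share of Tgfb2 runs from 7.93% to 8.29% in control and from 18.5% to 22.6% with ITF2357, and the receptor ratio is highest with I-BET151.

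Smad3 (chr9:63646767-63757994, minus strand), the transcription factor that carries the signal to DNA, had the highest RPKM of the 10 genes in every group. Control libraries spanned 295 to 297 CPM, JQ1 libraries 305 to 313, I-BET151 libraries 344 to 351 and ITF2357 libraries 266 to 273. The groups did not overlap, with I-BET151 above and ITF2357 below control. Smad3 rose by 0.24 on the log2 scale with I-BET151 (SE 0.02, edgeR adjusted p = 1.81e-10) and fell by 0.14 with ITF2357 (SE 0.02, edgeR adjusted p = 9.71e-06). On library totals without a scaling factor the rise with I-BET151 was 0.08 and still passed. With JQ1 the difference was 0.06 (95% interval 0.01 to 0.11, edgeR adjusted p = 0.0606). It passed with an adjusted p of 0.0365 with DESeq2 size factors, 0.0230 with DESeq2, 0.0455 over genes of at least 1 CPM and 0.0473 with the 2 groups alone. It also passed when ITF2357 library 2 (0.0472) or 3 (0.0449) was left out of the shared fit, and the adjusted p over all alternatives ran from 0.0230 to 0.185.

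Smad7 (chr18:75367529-75395935, plus strand), the inhibitory SMAD, was the least changed of the 10 genes with JQ1 and with ITF2357. Control libraries spanned 91.2 to 94.4 CPM, JQ1 libraries 90.9 to 100.3, I-BET151 libraries 76.6 to 80.1 and ITF2357 libraries 83.4 to 96.4. Only the I-BET151 libraries were apart from control. Smad7 fell by 0.26 with I-BET151 (SE 0.04, edgeR adjusted p = 5.19e-06), and the value on library totals was -0.42. The difference was 0.04 with JQ1 (95% interval -0.05 to 0.13, edgeR adjusted p = 0.580) and -0.06 with ITF2357 (95% interval -0.15 to 0.03, edgeR adjusted p = 0.262). Without ITF2357 library 1 the latter was -0.12 and passed (adjusted p = 0.0207, range over the alternatives 0.0207 to 0.874).

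The log2 ratio of Smad7 to Smad3 in RPKM was -1.38 ± 0.03 in control and -1.87 ± 0.03 with I-BET151 (SD, n = 3 in each), with no overlap and an exact permutation p of 0.1 (0.115 adjusted over 15 tests). It was -1.40 ± 0.06 with JQ1 (exact p = 0.6) and -1.30 ± 0.09 with ITF2357 (exact p = 0.3, adjusted 0.321), both overlapping with control.

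Per length, the order of the 10 genes in control cells was Smad3 (53.4 RPKM), Tgfbr1 (27.1), Smad7 (20.6), Tgfb1 (19.1), Tgfbr2 (16.97), Inhba (12.6), Tgfb3 (6.00), Grem1 (3.05), Tgfb2 (2.21) and Ltbp2 (1.91). The neighbours Tgfb2 and Ltbp2 overlapped between libraries in control and again with JQ1. Tgfbr2 and Smad7 overlapped with JQ1 and with ITF2357. With I-BET151, Tgfbr2 (25.5 RPKM) stood above Smad7 (17.2), and Tgfb3 (6.15) above Inhba (4.33). Grem1 was last with ITF2357, at 0.310 RPKM, and Ltbp2 last with I-BET151, at 0.205.

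At the same dose and time, the BET inhibitors I-BET151, a dimethylisoxazole on a quinoline core, and JQ1, a thienotriazolodiazepine, differed in 9 of the 10 genes, 6 higher and 3 lower with JQ1, where 60.4% of all genes passed (30.7% higher, 29.8% lower). Of all called genes 50.7% were higher with JQ1, and 68.9% on library totals without a scaling factor, which moved the median by 0.15. The differences for Ltbp2 and Grem1 were 14.2-fold (log2 3.83 ± 0.16 SE, edgeR adjusted p = 1.83e-23) and 6.76-fold (2.76 ± 0.17 SE, edgeR adjusted p = 4.44e-17), both higher with JQ1. Inhba was higher with JQ1 by 1.27 and Tgfb1 by 0.57 on the log2 scale. Tgfbr1 and Smad7 were higher by 0.25 and 0.30. The log2 differences of Tgfb2, Tgfbr2 and Smad3 were -0.33, -0.35 and -0.17, lower with JQ1. On library totals the log2 differences were -0.18 for Tgfb2, -0.19 for Tgfbr2, 0.41 for Tgfbr1 and 0.45 for Smad7. The call on Smad3 was lost on library totals (adjusted p = 0.469, range over the alternatives 1.04e-12 to 0.469).

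Tgfb3 did not pass between the BET inhibitors (0.14, 95% interval -0.0026 to 0.28, edgeR adjusted p = 0.0843), and on library totals it did (0.29, adjusted p = 0.000437, range over the alternatives 0.000437 to 0.354). The deviation from control had opposite signs for Ltbp2 under the pair of compounds, 0.60 with JQ1 and -3.22 with I-BET151. Both comparisons use the same control libraries.

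**Figure D4:**
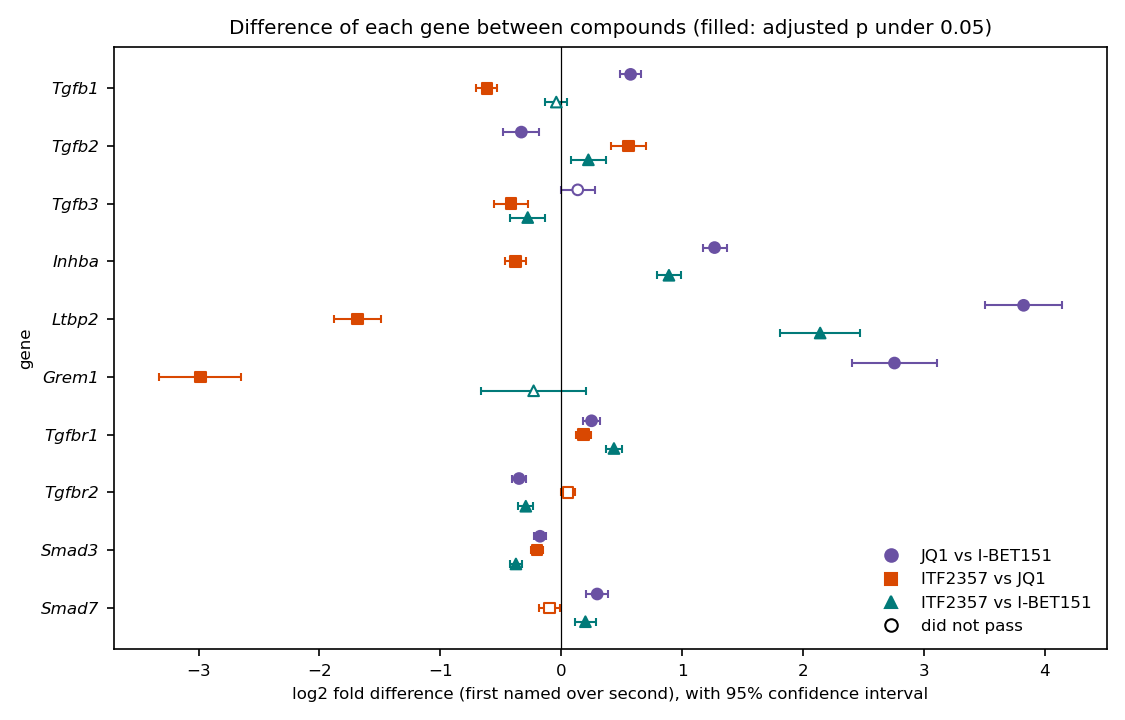
Log2 fold difference of each of the 10 genes between compounds, first named over second, with its 95% confidence interval; filled symbols mark an edgeR adjusted p under 0.05. The Tgfb1 and Grem1 intervals of ITF2357 over I-BET151 include 0, whereas Ltbp2 differs in all 3 pairs.

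The deacetylase inhibitor ITF2357 differed from I-BET151 in 8 of the 10 genes, 5 higher and 3 lower, where 62.8% of all genes passed (31.9% higher, 30.9% lower). Of all called genes 50.8% were higher with ITF2357, and 65.5% on library totals, which moved the median by 0.14. As the plot of differences between compounds shows, Tgfb1 did not pass (-0.04, 95% interval -0.13 to 0.05, edgeR adjusted p = 0.445). Grem1 did not pass either (-0.23, 95% interval -0.66 to 0.21, edgeR adjusted p = 0.361), at 25 to 41 counts per library in the 2 groups. Ltbp2 was higher with ITF2357 by 2.14, Inhba by 0.89, Tgfbr1 by 0.44, Tgfb2 by 0.23 and Smad7 by 0.20 on the log2 scale. The differences of Smad3, Tgfbr2 and Tgfb3 were -0.37, -0.29 and -0.28. On library totals they were -0.24 for Smad3 and -0.16 for Tgfbr2, and the rises of Tgfb2 and Smad7 were 0.36 and 0.34. The Tgfb2 call was lost without ITF2357 library 2 (adjusted p = 0.0597, range over the alternatives 3.36e-05 to 0.0597), and that on Tgfb3 on library totals (adjusted p = 0.0812, range 0.000526 to 0.0812).

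Between ITF2357 and JQ1, 8 of the 10 genes differed, 2 higher and 6 lower with ITF2357, where 48.6% of all genes passed (25.4% higher, 23.2% lower). Grem1 had a log2 difference of -2.99, rank 16 from the lowest of 17340 genes, and Ltbp2 one of -1.68. Tgfb1, Tgfb3, Inhba and Smad3 were lower with ITF2357, with log2 differences of -0.61, -0.41, -0.38 and -0.20. Tgfb2 and Tgfbr1 were higher by 0.55 and 0.19. Tgfbr2 (0.06, 95% interval -0.01 to 0.12, edgeR adjusted p = 0.125) and Smad7 (-0.10, edgeR adjusted p = 0.0573) did not pass, and Tgfbr2 passed without JQ1 library 2 (adjusted p = 0.0446, range over the alternatives 0.0446 to 0.505). Smad7 passed without ITF2357 library 1 (-0.16, adjusted p = 0.00275), without JQ1 library 1 (0.0180), on library totals (0.0200) and over genes of at least 1 CPM (0.0426), with a range of 0.00275 to 0.355 over all alternatives.

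Around these genes, 147 other genes of the pathway were listed and 100 of them measured. With JQ1, 41 of the 100 rose and 8 fell, with I-BET151 37 rose and 48 fell, and with ITF2357 36 rose and 39 fell. Over all 17340 genes, 12.5% rose and 12.3% fell with JQ1, 30.5% and 32.6% with I-BET151, and 27.6% and 26.4% with ITF2357, and each list's counts are to be read against these shares. The median log2 fold change of the 100 genes was 0.11 for JQ1, -0.13 for I-BET151 and -0.01 for ITF2357, where that of all genes was 0.00, -0.03 and -0.01. Where a list had 0 falls, 0 of its genes also fell at an unadjusted p under 0.05 in edgeR and 0 fell with DESeq2, which left up to 2 genes of a list without an adjusted p. The lists overlap, and the genes named from them all passed edgeR's test in the comparison given, with SEs of the log2 fold changes from 0.03 to 0.40 and adjusted p of at most 0.0406.

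Of 8 other ligands measured, 3 rose and 0 fell with JQ1, 3 rose and 4 fell with I-BET151, and 3 rose and 2 fell with ITF2357. Beside Tgfb1 and Tgfb2, the stress-induced ligand Gdf15 fell by 3.71 on the log2 scale with I-BET151 and by 1.66 with ITF2357. Its level went from 4.42 CPM in control to 0.338 and 1.37 CPM. Gdf11, an activin-like ligand, rose by 0.40, 1.58 and 0.66 with JQ1, I-BET151 and ITF2357. Bmp2 rose by 0.59 with JQ1, and Bmp8b fell by 1.70 with I-BET151, from 3.14 to 0.951 CPM. Of 10 other receptors and co-receptors, 4 rose and 0 fell with JQ1, 6 rose and 2 fell with I-BET151, and 4 rose and 3 fell with ITF2357. Cd109, a co-receptor that binds TGF-beta and limits its signal, fell by 3.87 with I-BET151, from 7.61 to 0.509 CPM. Nrp1, the co-receptor neuropilin, rose by 0.63, 1.35 and 0.87 with JQ1, I-BET151 and ITF2357. The BMP receptor Bmpr2 rose by 0.17 with JQ1, and the activin receptor Acvr2b fell by 0.49 with ITF2357.

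Among 19 other genes of latency and activation, 10 rose and 1 fell with JQ1, 4 rose and 13 fell with I-BET151, and 8 rose and 8 fell with ITF2357. Like Ltbp2, the binding protein Ltbp4 fell with I-BET151, by 3.06 on the log2 scale, as did the protease Plau, by 2.31, while the procollagen protease Bmp1 rose by 0.37. Itgb6, whose integrin releases latent TGF-beta, rose by 0.76 with JQ1 and by 2.29 with ITF2357 (log2), from 16.7 to 81.8 CPM. Adamts1, a matrix protease, rose by 0.89 and 0.72 with JQ1 and ITF2357, and Htra1, also a protease, fell by 0.29 and 0.59. Of 10 other antagonists, 3 rose and 0 fell with JQ1, 3 rose and 4 fell with I-BET151, and 4 rose and 2 fell with ITF2357. Beside Grem1, the BMP modulator Twsg1 rose by 0.39, 1.38 and 0.52 with JQ1, I-BET151 and ITF2357. The matrix proteoglycan Bgn fell by 2.54 and Bmper by 1.94 with I-BET151, at 0.711 and 0.980 CPM. Chrd, the BMP antagonist chordin, rose by 0.72 with ITF2357, the activin antagonist Fstl3 fell by 0.48 with ITF2357, and Fstl1 rose by 0.40 with JQ1.

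Of 5 other SMAD genes, 2 rose and 1 fell with JQ1, 3 rose and 1 fell with I-BET151, and 1 rose and 3 fell with ITF2357. The inhibitory Smad6, which acts on the BMP branch, rose by 0.30, 0.55 and 0.40 on the log2 scale with JQ1, I-BET151 and ITF2357, while Smad1, the BMP-branch transducer, fell by 0.13, 0.50 and 0.60. Among 25 co-regulators and turnover genes, 7 rose and 5 fell with JQ1, 11 and 10 with I-BET151, and 6 and 11 with ITF2357. Zeb2, a repressor that binds SMADs, fell by 0.21, 1.52 and 1.40 with JQ1, I-BET151 and ITF2357. The ubiquitin ligase Nedd4l rose by 1.16 and 0.61 with I-BET151 and ITF2357, the deubiquitinase Usp11 fell by 0.90 with ITF2357, and Ldlrad4, an inhibitor of SMAD phosphorylation, rose by 0.30 with JQ1.

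Among 23 measured TGF-beta target genes, 12 rose and 2 fell with JQ1, 4 rose and 18 fell with I-BET151, and 8 rose and 12 fell with ITF2357, where the shares over all genes were 12.5% and 12.3%, 30.5% and 32.6%, and 27.6% and 26.4%. Their median log2 fold changes were 0.15, -0.37 and -0.15 in that order. Itgb6, described among the genes of activation, is also on this list. Snai1, which drives epithelial-mesenchymal transition, fell by 2.80 on the log2 scale with I-BET151, from 3.82 to 0.553 CPM, while Ccn2, connective tissue growth factor, rose by 0.83 with I-BET151. Snai2, a related repressor, fell by 0.67 with JQ1 and fell by 1.59 with ITF2357, and Acta2 rose by 0.81 with JQ1, at 2.79 CPM. Of 7 BMP target genes, 5 rose and 0 fell with JQ1, 5 rose and 1 fell with I-BET151, and 6 rose and 0 fell with ITF2357. The Id genes encode inhibitors of helix-loop-helix factors. Id2 rose by 0.70 with JQ1 and 0.78 with I-BET151, Id3 by 0.63 with JQ1, and Id1 by 1.07 with ITF2357. The transcription factor gene Atoh8 rose by 1.65 with I-BET151 and 1.46 with ITF2357, and the homeobox gene Dlx2 fell by 0.54 with I-BET151.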

How the data were processed

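RNA of 12 libraries, 3 per group, was measured. The submitters' processing notes name the build mm10 and the tools edgeR 3.38.4, STAR 2.7.2a, bcl2fastq and featureCounts (Subread 2.0.1), per the labels. The authors deposited 1 table of raw counts per gene and library, beside their log2 CPM, log2 RPKM, log2 fold changes and p-values. The annotation release, the rule that kept genes in the table and the use of strand in counting are not given in the sources used here. Identifiers of 17165 of 17340 genes (99%) matched GENCODE M21.

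Counts were tested in R 4.3.3 with edgeR 4.0.16: filterByExpr (0 genes removed), TMM factors, 1 quasi-likelihood fit of all 12 libraries without covariates, 6 comparisons, and Benjamini-Hochberg adjustment over all genes. The code of the fit was run on counts simulated with the same dispersion for all genes and groups. That does not test the fit where the spread differs between genes or groups. Libraries differed most from each other with ITF2357. Chi-square per degree of freedom between pairs of its libraries was 2.74 to 5.31, against 1.63 to 2.37 in the other groups. The fit pooled the spread over all groups, so SEs and p-values may be too small for ITF2357. In fits of control and 1 compound alone, adjusted p of all 10 genes was larger with ITF2357 than in the shared fit. It was smaller for all 10 with JQ1 and I-BET151. The common biological coefficient of variation was 3.37%. Shares and ratios were tested with exact permutation. In the authors' deposited table, 30 of 30 calls on the 10 genes against control were the same as here.

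The members and gene lists were chosen with earlier results of these data known. From each list the text names, among called genes whose mean log2 CPM was 0 or more, the 2 with the largest log2 fold change per compound and the largest opposite one, and for likeness the 2 nearest genes whose mean log2 CPM was 2 or more. Of the genes that this rule took, 1 is not reported here, and a gene on 2 lists is described under 1 of them. Alternatives were DESeq2 1.42.0, other scaling, other filters, fits of 2 groups, a replicate block and leaving out each library.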

Additional observations from a re-analysis of the deposited data

How the results depend on the processing

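Each of the 60 log2 fold changes (10 genes, 6 comparisons) was recomputed under 19 alternatives, or 1140 values in all. Direction and side of the threshold held in all of them for 45 of the 60, and 30 values differed: 11 lost a call, 14 gained one and 5, none called, changed sign. Sign changes on library totals were -0.13 for Tgfb3 (I-BET151 against control) and 0.10 for Tgfb1 (ITF2357 against I-BET151). With 1 library left out, Tgfb3 with I-BET151 against control ranged from -0.0145 to 0.0844, Smad7 with JQ1 against control from -1.69e-05 to 0.0766, and Tgfb1 between ITF2357 and I-BET151 from -0.0640 to 0.00439. The log2 ratio of Smad7 to Smad3 with JQ1 ranged from -0.0573 to 0.00463 (exact permutation p from 0.2 to 1). With the replicate number as a block (replicate block), 7, 9 and 9 of the 10 genes passed against control, as many as without it, and genes called were 4141, 10865 and 9247, against 4308, 10945 and 9356 without it. Deviations of same-numbered libraries correlated at -0.152 to 0.0622, so the numbers were not taken to pair them, and 6 of 18 correlated best with their own number. With 1 library left out, 5 to 8 of the 10 genes passed with JQ1, 9 with I-BET151 and 9 to 10 with ITF2357, and 42 to 49, 84 to 86 and 68 to 80 of the 100 pathway genes. No count of calls moved by over 1.5 times. The precision of Grem1 is limited by its low counts in I-BET151 and ITF2357 libraries, and that of Ltbp2 by its low counts in I-BET151 libraries.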

Other observations

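The remaining genes most like each of the 10, over the 4 centred group means of log2 CPM among 11260 genes, were as follows, with the root mean square distance on the log2 scale. Smad3 lay closest to the PIAS-like coactivator Zmiz1 (0.00855) and to Isca2 (0.012), and Smad7 to the splicing factor Srsf9 (0.015) and Tes (0.0156). Tgfbr1 lay closest to Palld (0.021), which encodes the actin-binding palladin, and to Gm12537 (0.0223), and Tgfbr2 to Adgrg6 (0.0188) and Chp1 (0.0197). Tgfb3 lay closest to Utrn (0.0157) and Ubxn7 (0.0193), and Hoga1 came after Myc for Inhba (0.0478). The distance is not scaled to the size of a gene's change, so it tends to be larger for strongly changed genes such as Grem1 and Ltbp2. Chac1 and Atf5, both known targets of the integrated stress response, were at 0.215 and 0.225 from Grem1. Ptpn22 and Igfbp3 were both at 0.313 from Ltbp2. Chac1 stood at 1.69, 1.23, -1.66 and -1.27 in control, JQ1, I-BET151 and ITF2357 cells on the centred scale.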
